A study of Mus musculus with 142 samples.

Results

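AOSN.B.COSN123 is the deletion series member in which the 129 homolog of hybrid mouse embryonic stem cells (mESCs) lacks the OSN site of element A, all of element B and the 3 OSN sites of element C of the Dppa2/4 replication domain. Its profiles were found by their column names, which gave 5 clones (1A.4, 2A.2, 3C.4, 5A.2 and 5A.6) with 2 replicates each, or 20 of the 142 samples of the series, since each library is an early and a late S-phase fraction. The cells are F121-9, a 129 × CAST hybrid line grown in 2i and LIF, so that reads can be assigned to the 129 (musculus) or CAST (castaneus) homolog. Replication timing (RT) was measured by E/L Repli-seq, which sequences BrdU-labelled DNA of sorted early and late S-phase cells, and is given as log2 of early over late reads in windows of 50 kb, with positive values for early and negative values for late replication.

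All 5 clones carry the same set of deletions on 129. The clones differ on CAST. Clones 1A.4 and 5A.2, labelled het, have an unmodified CAST homolog, and these CAST alleles are the control. Clones 2A.2, 3C.4 and 5A.6, labelled hom, also lack B on CAST, so their CAST allele is a separate group of 3 clones. The control is of the other strain than the deletion allele, and the 129 alleles of CTSS clone C4 and CR11.8k clone 50, whose own deletions are on CAST, were therefore used as WT 129 alleles (2 clones). The most similar deletions, all on 129, were AOSN.COSN123 (B intact, clones A6 and B6), AOSN.BOSN12.COSN123 (only the OSN sites of B removed, clone D6) and A.B.COSN123 (all of A removed, 2 clones). Of the A.B.COSN123 clones, 2E.1 is labelled het and 5A.7 hom, and 5A.7 also lacks B on CAST. Only their 129 alleles were compared. The labels also list clone F4 of AOSN.COSN123 and clone B8 of AOSN.BOSN12.COSN123, which were not analysed here because no column of values could be matched to them. The labels do not say that replicates came from separate cultures, so the spread between replicates may be technical.

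DNA replication in mammals proceeds in large domains, each with a typical time in S phase, and early domains are mostly transcribed and lie in the nuclear interior. Early replication control elements (ERCEs) are DNA segments in cis whose removal delays such a domain, and OSN sites are places within them where the pluripotency factors Oct4, Sox2 and Nanog bind together. The Dppa2/4 domain replicates early in mESCs and is flanked by late-replicating chromatin on both sides.

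The 5 deletions were each cut with a pair of guides, which are shown because their positions define the allele that all later values refer to. Coordinates are mm10, letters run 5′ to 3′, and the capitals mark the PAM next to each protospacer.
A-OSN-1-G1, plus strand, chr16:48308671-48308693: cactgtagctgtcaccaaagAGG
A-OSN-1-G2, minus strand, chr16:48309344-48309366: aaagggaacctagttgcctaAGG
B-G1, minus strand, chr16:48396802-48396824: cacgtacacagctgcggtagTGG
B-G2, minus strand, chr16:48443051-48443073: tcagagacggaatcgcatcaTGG
C-OSN-3-G1, plus strand, chr16:48606304-48606326: cagcctgttgaattgacagaAGG
C-OSN-3-G2, plus strand, chr16:48607147-48607169: tctcttccctgtgccgtaagTGG
C-OSN-2-G1, plus strand, chr16:48608199-48608221: agagtttgtagaatgctccgGGG
C-OSN-2-G2, minus strand, chr16:48608749-48608771: acaagcatggtagggcctaaAGG
C-OSN-1-G1, minus strand, chr16:48613166-48613188: gagtaactcaggcaaaacgtTGG
C-OSN-1-G2, minus strand, chr16:48614737-48614759: ggaccggccaacctcccttaAGG
All 10 guides matched the reference at their listed positions, and each had 1 exact match on chromosome 16. A-OSN-1 (chr16:48308688-48309349, 662 bp) lies in an intron of Dppa2. B (chr16:48396808-48443056, 46249 bp) overlaps the predicted gene Gm5485, the rRNA gene n-R5s36 and the start of Morc1, and takes coding exons and UTR of Gm5485 and Morc1. C-OSN-3 (chr16:48606321-48607163, 843 bp), C-OSN-2 (chr16:48608216-48608754, 539 bp) and C-OSN-1 (chr16:48613172-48614742, 1571 bp) lie in introns of Morc1. B takes away 3193 bp of the window from 48.35 to 48.40 Mb and 43056 bp of the window from 48.40 to 48.45 Mb. In the latter window the values of the deletion allele thus come largely from neighbouring windows by smoothing.

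The deleted OSN sites of A and C, the B-OSN-1 (chr16:48422340-48422716, 377 bp) and B-OSN-2 (chr16:48435558-48436053, 496 bp) sites inside B, and all of B were searched on both strands for the octamer bound by Oct4, ATGCAAAT, and for the core letters bound by Sox factors, ACAATG. The octamer had 0 matches in these 6 OSN sites, and 3.40 to 13.42% of chromosome 16 windows of the same lengths held it. B held 5 octamers, as 96.2% of windows of its length held at least 1. The Sox core was found 2 times in A-OSN-1, 1 time in C-OSN-2, 2 times in C-OSN-1, 1 time in B-OSN-1 and 0 times in C-OSN-3 and B-OSN-2, and it occurred in 23.2 to 67.0% of windows of these lengths. All of B held 28, and every window of its length held at least 1. The matches in the OSN sites are printed with the core in capitals, on the strand that carries it, and the coordinates are those of the core letters.
A-OSN-1, minus strand, chr16:48308705-48308710: tcccagcaaccACAATGagatttgatgc
A-OSN-1, minus strand, chr16:48308786-48308791: aaaaaagacaaACAATGgggctggagag
B-OSN-1, plus strand, chr16:48422558-48422563: cccatccatagACAATGgggtgaggagc
C-OSN-2, plus strand, chr16:48608700-48608705: cttgtctctttACAATGtatttattcca
C-OSN-1, minus strand, chr16:48613832-48613837: agagagaatgcACAATGgcagccttagg
C-OSN-1, minus strand, chr16:48614627-48614632: tcaactagtccACAATGacaaacattgg
These letters are matches of sequence and were not tested as binding sites.

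One library stood apart most clearly from its label. Over 35764 windows of the other autosomes, the deviations of 5A.2 replicate 2 from the mean of the 10 libraries correlated with those of 5A.6 (r = 0.56 and 0.62 on 129) and not with those of 5A.2 replicate 1 (r = -0.32). The same held on CAST, with r = 0.56 and 0.63 against -0.30. In the other 4 clones the replicates of a clone correlated at 0.18 to 0.63. The lowest was 1A.4, whose replicate 2 correlated slightly more with 5A.2 replicate 1 (r = 0.23) and 2A.2 replicate 2 (r = 0.20) on 129. The 3 libraries of 5A.6 and 5A.2 replicate 2 also lacked a value on 129 in more windows (13.2 to 17.2%) than the other 7 (9.88 to 11.9%). On CAST the missing share did not set them apart, since it was 14.8 and 15.1% in 3C.4 and 13.7% in 5A.6 replicate 1. The windows share smoothing and normalization, so these correlations are descriptions. Leaving out 5A.2 replicate 2 moved the means over clones given below by at most 0.0438 for intervals and 0.0631 for genes on the deletion alleles, and by at most 0.0798 and 0.0951 on the control. The core differences and the counts of windows called, other than those against WT 129, are given with and without it.

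In the core of the domain, 48.2 to 48.6 Mb of chromosome 16, the deletion alleles replicated later than the control alleles. On the mean over clones they were in the middle of S phase, while clone 5A.6 stayed above 0 in both replicates. The 8 windows of this interval hold Dppa4, Dppa2, A-OSN-1, B and most of Morc1. Their mean RT was 0.02 and -0.13 in the replicates of 1A.4, -0.19 and -0.33 in 2A.2, -0.23 and -0.14 in 3C.4, -0.20 and 0.24 in 5A.2, and 0.48 and 0.48 in 5A.6. The control alleles were at 1.16 and 0.68 in 1A.4 and at 1.04 and 1.07 in 5A.2. All 10 deletion libraries were later than all 4 control libraries, and clone 5A.6 was nearest to them. Over clones, the mean was 0.00 ± 0.29 (SD, n = 5) on the deletion alleles against 0.99 ± 0.10 (SD, n = 2) on the control alleles. The difference of -0.99 had p = 0.0476 in a two-sided exact permutation test over clone means of alleles, the smallest p that 5 against 2 can give. Without 5A.2 replicate 2 the difference was -1.03 (p = 0.0476, exact). The control alleles come from 2 of the 5 deletion clones and are of the other strain. The permutation took neither into account. The WT 129 alleles were at 1.01 ± 0.03 (SD, n = 2) and the CAST alleles lacking B at 0.94 ± 0.07 (SD, n = 3), so both lay with the control in the core.

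**Figure D1:**
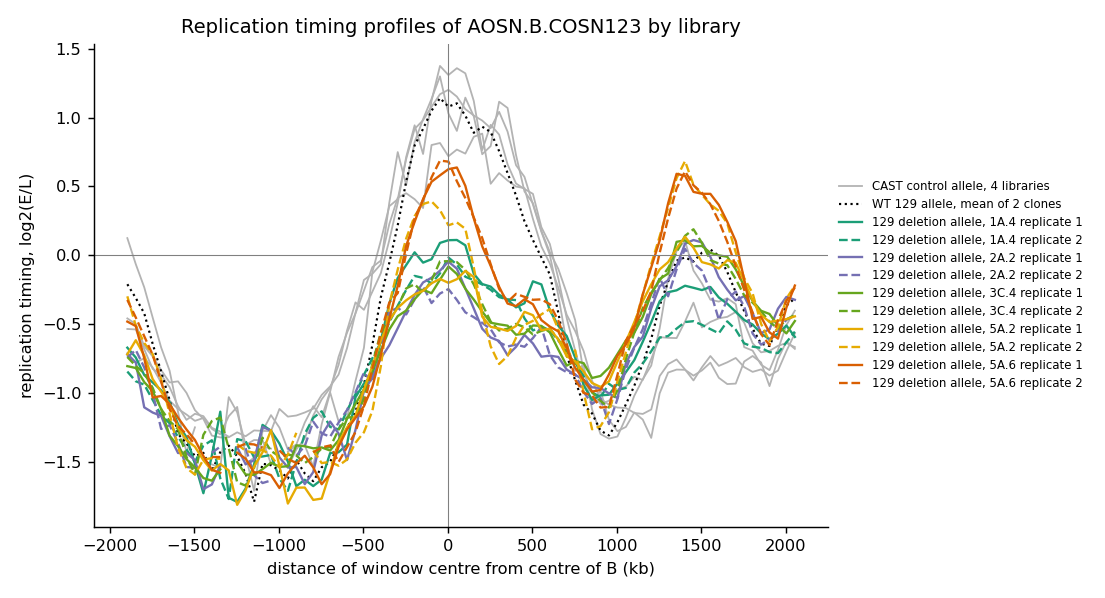
RT (log2 of early over late reads, y axis) against the distance of each 50 kb window from the centre of B (kb, x axis) for the 10 deletion libraries (solid, replicate 1; dashed, replicate 2), the 4 control libraries (grey) and the mean of the WT 129 alleles (dotted). The control peak around B is absent from most deletion libraries, 5A.6 and 5A.2 replicate 2 keep a lower peak, and the second peak to the right is seen on 129 alleles with and without the deletions.

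The delay was not even along the profile. On the left slope (47.5 to 48.2 Mb), between the late flank and the core, the deletion alleles were at -1.04 ± 0.03 (SD, n = 5) and the control at -0.52 ± 0.03 (SD, n = 2). The 10 deletion libraries ranged from -1.13 to -0.94 and the 4 control libraries from -0.65 to -0.44, without overlap. On the right slope (48.6 to 49.5 Mb) the values were -0.66 ± 0.09 against -0.15 ± 0.04, and the libraries again did not overlap (-0.79 to -0.54 against -0.19 to -0.07). The left flank (46.5 to 47.5 Mb) was late on both alleles, at -1.29 ± 0.05 and -1.08 ± 0.07. Averaged over the whole domain from 47.5 to 49.5 Mb, the deletion alleles were at -0.66 ± 0.10 and the control alleles at -0.05 ± 0.03.

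Part of the difference on the left slope was also present between WT alleles of the strains. The WT 129 alleles were at -0.83 ± 0.06 (SD, n = 2) there, between the deletion and the control. On the right slope they were at -0.30 ± 0.02. In the gap beyond the domain (49.5 to 49.65 Mb) the deletion alleles were at -0.46 ± 0.16, the WT 129 alleles at -0.78 ± 0.22 and the control at -1.03 ± 0.21.

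Tested window by window, later replication of the deletion alleles ran from 47.55 to 49.15 Mb. With clones as units and clone as a random block, 56 of 78 windows from 46.5 to 50.5 Mb passed an adjusted p of 0.05 (limma, Benjamini-Hochberg over all autosomal windows). Of these, 37 were later and 19 earlier, beside 12.9% of all windows called later and 13.3% called earlier on the autosomes. Without the clone block, 31 were later and 11 earlier, beside 6.65 and 6.69%. With the block but without 5A.2 replicate 2, 40 were later and 18 earlier, beside 12.5 and 13.1%. With the block and all libraries, the later windows were 32 in a row from 47.55 to 49.15 Mb, 4 from 46.8 to 47.0 Mb and 1 at 47.15 to 47.2 Mb. The largest delay was not at B but right of C, in the window at 48.7 to 48.75 Mb. In that window the deletion libraries ranged from -0.79 (5A.2 replicate 2) to -0.23 (5A.6 replicate 1), and the controls were at 0.88 and 0.60 in 1A.4 and at 1.12 and 1.04 in 5A.2. The fitted difference was -1.38 ± 0.11 (SE, adjusted p = 2.81e-08, limma). As counted by libraries, all 10 deletion libraries were later than all 4 controls in 29 of 74 windows (6.41% of all windows), 7 of 8 in the core and 19 of 20 from 48 to 49 Mb. They were earlier in 4 of 74 (5.92% of all windows), 3 of them in the gap beyond the domain.

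Against WT 129 alleles the delayed stretch was shorter. Of 78 windows, 20 were called and all were later, beside 2.79% of all windows called later and 0.821% called earlier. They were 19 windows from 48.05 to 49.0 Mb and 1 at 46.6 to 46.65 Mb. The largest delay, -1.29 ± 0.13 (SE, adjusted p = 5.247e-05, limma), was at 48.65 to 48.7 Mb, next to the window with the largest delay against CAST. Windows of the left slope before 48.05 Mb were called against CAST and not against WT 129. The difference between these comparisons was not tested, and they share the deletion alleles. Against the CAST alleles that lack B, 59 windows were called (42 later, 17 earlier), beside 18.3% of all windows called later and 13% called earlier, and the main later stretch again ran from 47.55 to 49.15 Mb. The earlier calls depended on the fit, with 3 (beside 35 later) without the clone block and 9 (39 later) without clone 5A.6. There were 15 (41 later) without 5A.2 replicate 2 and 6 (35 later) without it and both libraries of 5A.6. In the same order, 6.99, 8.22, 12 and 7.14% of all windows were called earlier, so this share fell from 13% as well. The share of all windows called later was also lower in each of these fits.

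**Figure D2:**
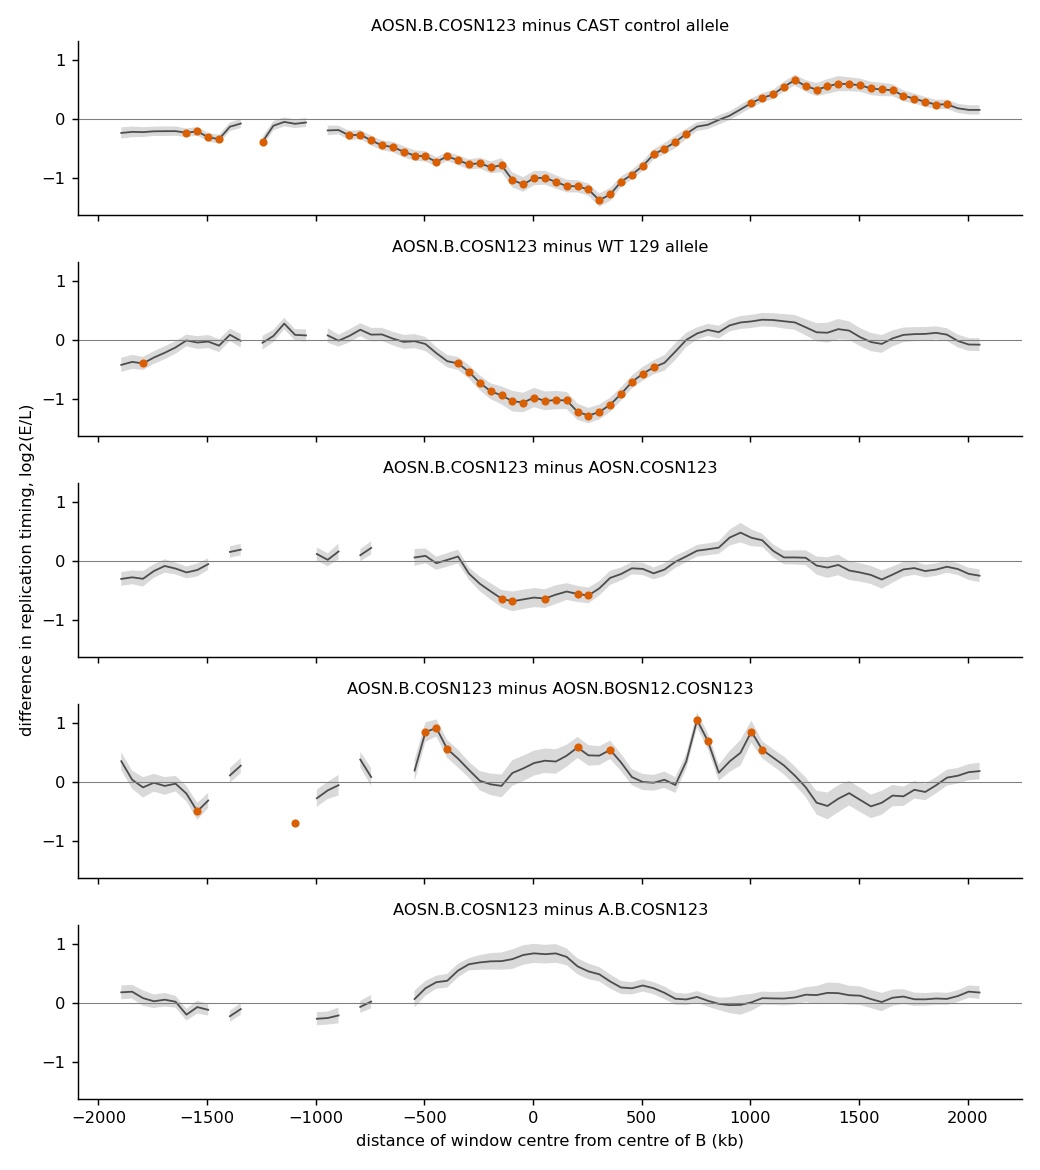
Difference in RT (log2 scale, y axis) between the AOSN.B.COSN123 alleles and 5 other groups against the distance from the centre of B (kb, x axis). Lines are fitted differences, grey bands ± 1 SE, filled points windows with an adjusted p at or under 0.05. The dip around and right of B is present against CAST control, WT 129 and AOSN.COSN123, and the rise to the right of the domain is called against CAST control and not against WT 129.

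Most protein-coding genes of the domain lay above 0 on the control alleles and near or below 0 on the deletion alleles. GENCODE annotates 14 protein-coding genes from 46.5 to 50.5 Mb, 11 of them in the domain, and 10 of these 11 had a mean above 0 on the control alleles. On the deletion alleles the mean over clones was above 0 at Dppa2 and Gm5485, and at Gm5485 alone without 5A.2 replicate 2, where Dppa2 was at -0.05. The median over the 10 libraries was below 0 at all 11 genes, and clone 5A.6 was above 0 at 4 of them. All values are the mean of the windows that a gene overlaps, so neighbouring genes share smoothed signal.

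The pluripotency genes lay at the left of the core. Dppa4, whose product binds DNA together with DPPA2, was at -0.02 ± 0.27 (SD, n = 5 clones) on the deletion alleles, with libraries from -0.27 to 0.41, and at 0.76 on the control, with libraries from 0.34 to 0.99. Its highest deletion library lay above the lowest control library, so the libraries overlapped at Dppa4. Dppa2, its partner, was at 0.01 ± 0.33 against 1.03, with libraries from -0.35 to 0.57 against 0.80 to 1.14, and these did not overlap. Gm5485, which B removes, covered windows at 0.09 ± 0.32 against 1.12, with a median over the deletion libraries of -0.06.

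Morc1, a gene needed for spermatogenesis that spans B and C, was at -0.05 ± 0.28 on the deletion alleles and at 1.00 on the control, with all 5 of its windows called later. Its deletion libraries ran from -0.39 to 0.42 and its control libraries from 0.79 to 1.18, without overlap. Right of C, Trat1, which encodes a T-cell receptor-associated adaptor, changed most, from 0.85 on the control to -0.49 ± 0.18 on the deletion alleles. The resistin-like genes Retnlb and Retnla share 1 window, at 0.60 on the control and -0.49 ± 0.14 on the deletion alleles, and Retnlg was at 0.50 and -0.47 ± 0.12. These genes were above 0 on every control library and below 0 on every deletion library.

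At the right edge of the domain the differences became smaller. Dzip3, a ubiquitin ligase gene, was at 0.26 on the control and -0.47 ± 0.11 on the deletion alleles, and Cip2a, which encodes an inhibitor of protein phosphatase 2A, was at 0.08 and -0.51 ± 0.11. Myh15, a myosin heavy chain gene, was late on both, at -0.43 and -0.71 ± 0.07, and was at -0.68 on the WT 129 alleles. Of its 3 windows, 2 were called against CAST control and 0 against WT 129.

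Clone 5A.6 kept the most early replication, and it did so in a limited stretch. Since this clone was singled out with its values known, the following is description without a test. Around the core, 5A.6 had a run of windows above 0 of 500 kb (48.15 to 48.65 Mb) in both replicates. The run was 400 kb (48.15 to 48.55 Mb) in 5A.2 replicate 2, 200 kb (48.35 to 48.55 Mb) in 1A.4 replicate 1 and 0 in the other 6 deletion libraries, whereas the 4 control libraries had 950 to 1050 kb. The earliest window of the domain was at 0.64 and 0.69 in 5A.6, at 0.39 in 5A.2 replicate 2 and between -0.23 and 0.11 in the other 7, and the controls reached 0.88 to 1.38. No deletion library reached the lowest control peak.

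Both libraries of 5A.6 were earlier than the other 8 in 7 of 8 core windows and in 15 of 74 windows of the region, beside 5.01% of windows over the autosomes. On the right slope this held in 4 of 18 windows, and on the left slope in 0 of 13. For 1A.4, 2A.2, 3C.4 and 5A.2 the same count was 0 of 8 in the core, beside 3.8, 6.67, 2.77 and 2.36% over the autosomes. Without 5A.2 replicate 2, 5A.6 was earlier than the other 7 in 8 of 8 core windows and 27 of 74 region windows, beside 12.3% over the autosomes. The genome-wide share thus also rose when this library was left out.

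Along the domain, 5A.2 replicate 2 lay near 5A.6 up to C and apart from it on the right slope. At 48.3 to 48.35 Mb, the window with A-OSN-1, 5A.6 was at 0.53 and 0.57 and 5A.2 replicate 2 at 0.39, while the other 7 lay from -0.35 to -0.03. At 48.6 to 48.65 Mb, the window that holds the 3 deleted C sites, 5A.6 was at 0.06 and 0.12, and 5A.2 replicate 2 at -0.42 lay among the others (-0.53 to -0.21). By 48.9 to 48.95 Mb, 5A.6 at -0.36 and -0.32 was within the range of the others, since 1A.4 replicate 1 was at -0.19.

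Outside the core, 5A.6 did not stand apart on the left slope, where both its libraries lay within the range of the other 8. Over the whole domain it was earliest, at -0.53 and -0.49, and the other 8 libraries were between -0.78 and -0.62. Clone 2A.2 was the latest clone on the right slope, at -0.77 and -0.79, and was later than all other libraries in 8 of 18 windows there, beside 8.29% over the autosomes. Clones 3C.4 and 5A.2 were in no window of the domain later than all others in both replicates.

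**Figure D3:**
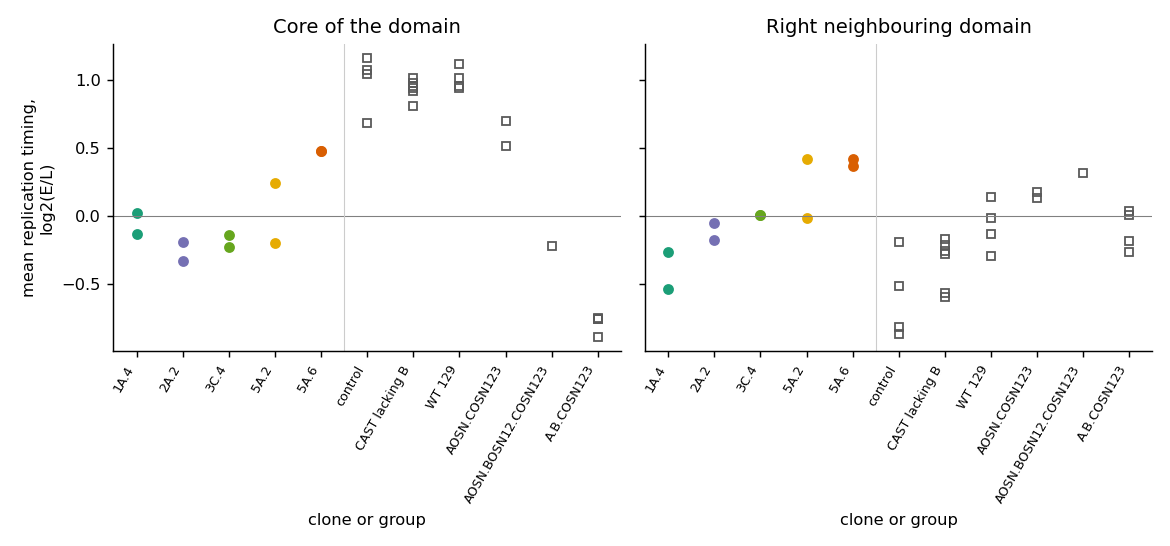
Mean RT (log2 of early over late reads, y axis) of the core (48.2 to 48.6 Mb) and of the right neighbouring domain (49.65 to 50.05 Mb) for each library of the 5 deletion clones (filled, coloured by clone) and of the comparison groups (open). In the core, the replicates of 5A.6 coincide near 0.48 and those of 5A.2 lie apart at -0.20 and 0.24. In the neighbouring domain, 5A.6 and 5A.2 replicate 2 lie at 0.37 to 0.42, above the other 7.

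The alleles of the same library were then set against each other, which removes what both homologs of a library share. The 129 minus CAST difference of the core was -1.14 and -0.82 in 1A.4, -1.11 and -1.13 in 2A.2, -1.17 and -1.12 in 3C.4, -1.24 and -0.83 in 5A.2, and -0.54 and -0.48 in 5A.6. The smaller delay of 5A.6 thus remained within its libraries, while 5A.2 replicate 2 (-0.83) was close to 1A.4 replicate 2 (-0.82). The CAST core of 5A.6, at 1.02 and 0.96, lay within the range of the other CAST alleles (0.68 to 1.16). The mean difference was -1.01 over the 2 het clones and -0.92 over the 3 hom clones, whose CAST allele lacks B. The hom clone means ranged from -1.14 to -0.51. The smaller hom mean rested on 5A.6, since the libraries of 2A.2 and 3C.4 were at -1.11 or lower.

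**Figure D4:**
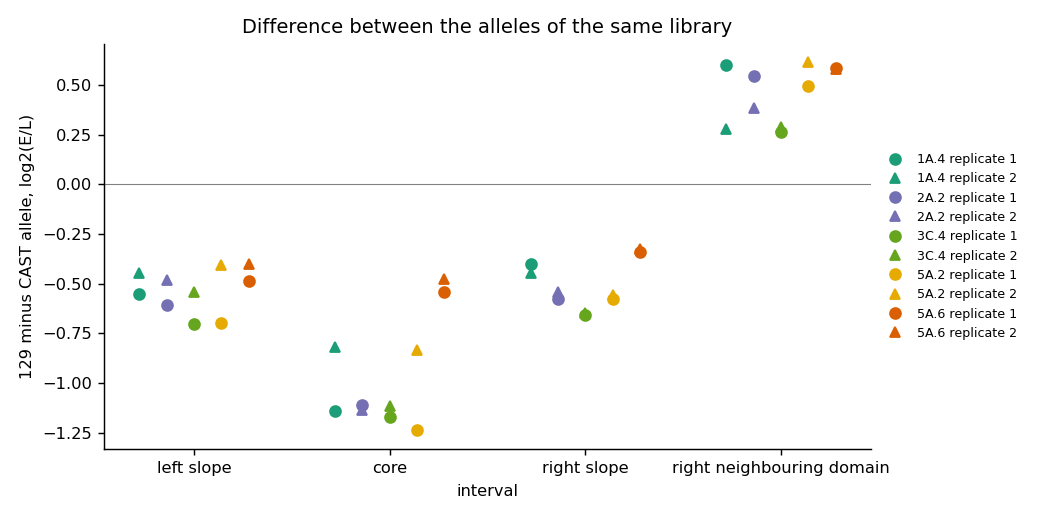
129 minus CAST difference in RT within each library (log2 scale, y axis) for 4 intervals (x axis), coloured by clone, with circles for replicate 1 and triangles for replicate 2. In the core, 5A.6 lies at -0.54 and -0.48 and all other libraries at -0.82 or lower. In the right neighbouring domain all 10 libraries lie above 0.

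The spread between clones was next set against the spread between replicates, as a description with no test for the core and the whole domain, because clone 5A.6 was known to stay earlier there. A clone mean averages 2 libraries, so with no difference between clones and independent libraries its SD would be 0.71 of that within clones. In the core, the 5 clone means had an SD of 0.288 and the replicates within clones an SD of 0.156, a ratio of 1.85. Without clone 5A.6 the ratio was 0.73, so in the core the excess rested on this clone. The within-clone SD fell to 0.0793 without 5A.2 replicate 2, and the ratio was 3.79. Over the whole domain the ratio was 3.20, and it was 1.80 without clone 5A.6 and 6.88 without 5A.2 replicate 2.

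By window, the SD between clone means exceeded that within clones in 48 of 74 windows from 46.5 to 50.5 Mb, beside 46.6% of windows over the autosomes. It did so in 8 of 8 core windows (median SDs of 0.302 and 0.177), in 8 of 8 windows of the neighbouring domain (0.304 and 0.187), in 12 of 18 on the right slope and in 2 of 13 on the left slope. Over the autosomes the median SDs were 0.124 between and 0.129 within clones, and the median ratio of 0.952 lay above 0.71. The ratio was above 0.71 in 57 of 74 windows of the region and in 70.3% over the autosomes, in 8 of 8 windows of the core and of the neighbouring domain, and in 6 of 13 on the left slope. Without 5A.2 replicate 2 the SD between clone means exceeded that within clones in 52 of 74 windows, beside 65.4% over the autosomes. The medians in the core were then 0.313 and 0.0916. With no difference between clones the ratio would then be 0.77, and it was above this in 58 of 74 windows, beside 79.0%. At 48.6 to 48.65 Mb, the window of the C sites, the SDs were 0.24 between and 0.03 within clones.

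The moderated F test over clones (limma) called 0 of 74 windows at an adjusted p of 0.05, beside 0% over the autosomes. At an unadjusted p under 0.05 it gave 28 of 74, beside 22.4% over the autosomes. It called 23 of 74 without 5A.2 replicate 2, beside 17.7%. This library was left out after it was seen to differ from the other replicate of its clone. Leaving it out lowered the within-clone SD, over the autosomes from a median of 0.129 to 0.105. The tested windows also include the core, where clones were already known to differ. The counts of 28 and 23 are therefore descriptions and are not read as results.

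**Figure D5:**
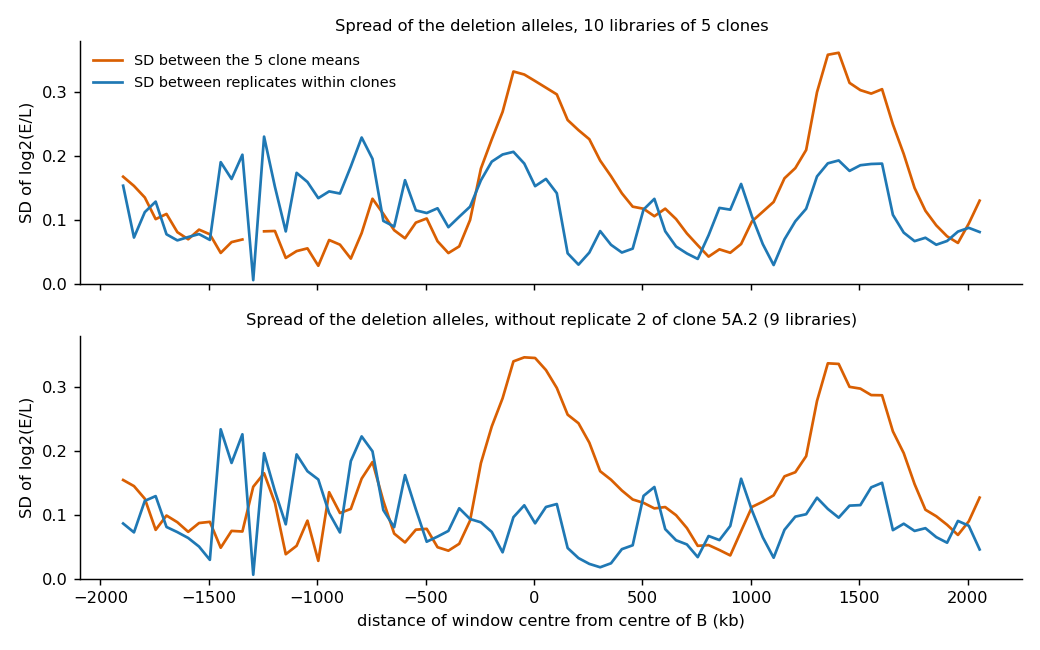
SD of RT (log2 scale, y axis) between the 5 clone means and between replicates within clones, against the distance from the centre of B (kb, x axis), for all 10 libraries (upper) and without 5A.2 replicate 2 (lower). The SD between clones peaks near 0.33 around B and near 0.36 in the neighbouring domain, and the within-clone SD around B is lower in the lower plot.

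The right neighbouring domain (49.65 to 50.05 Mb), which none of the deletions touches, was earlier on the 129 deletion alleles than on CAST. Its RT was -0.26 and -0.54 in 1A.4, -0.05 and -0.18 in 2A.2, 0.01 and 0.01 in 3C.4, -0.02 and 0.42 in 5A.2, and 0.42 and 0.37 in 5A.6. The control alleles were at -0.86 and -0.82 in 1A.4 and at -0.51 and -0.19 in 5A.2, so the libraries of the groups overlapped. The means were 0.02 ± 0.30 (SD, n = 5) and -0.60 ± 0.34 (SD, n = 2). From 49.4 to 50.35 Mb all 19 windows were called earlier against CAST control, the most, by 0.66 ± 0.09 (SE, adjusted p = 1.621e-05, limma), at 49.6 to 49.65 Mb. Against WT 129 alleles, which were at -0.08 ± 0.19 (SD, n = 2), 0 of these windows were called.

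Ift57, a gene of intraflagellar transport, and Cd47, which encodes the integrin-associated protein that inhibits phagocytosis, lie in this domain. Ift57 was at -0.04 ± 0.29 on the deletion alleles, -0.63 on the control and -0.20 on WT 129. Cd47 was at 0.12 ± 0.33, -0.56 and -0.01. For both, 3 windows were called against CAST control and 0 against WT 129.

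Clones differed in the neighbouring domain on both homologs. Clone 1A.4 was later than all other libraries in 5 of 8 windows, beside 4.1% over the autosomes, and 5A.6 with 5A.2 replicate 2 were earlier than the other 7 in 8 of 8, beside 9.82% of windows over the autosomes. On CAST, 1A.4 was the latest clone (-0.86 and -0.82), and 5A.6 (-0.16 and -0.21) and 5A.2 replicate 2 (-0.19) were the earliest libraries. The 129 minus CAST difference within libraries was 0.59 and 0.58 in 5A.6 and between 0.26 and 0.61 over all 10 libraries. In contrast to the core, 5A.6 was thus not apart from the other clones in this difference.

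Next, the deletion was compared with the most similar deletions on the same homolog, to ask what the loss of all of B or of more of A adds. These comparisons share the AOSN.B.COSN123 alleles. In AOSN.COSN123, where B is intact, the core was at 0.70 in clone A6 and 0.52 in clone B6, above all 10 libraries of AOSN.B.COSN123. The nearest library was 5A.6 replicate 2 at 0.48. The difference of clone means was -0.61 (adjusted p = 0.0714, exact permutation test over clones, adjusted over 3 deletions, the smallest that 5 against 2 can give here). Without 5A.2 replicate 2 it was -0.65 (adjusted p = 0.0714, exact).

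By window, 5 of 71 were called later than AOSN.COSN123 and 0 earlier, beside 0.528% of all windows called later and 1.45% called earlier. They were 48.25 to 48.35, 48.45 to 48.5 and 48.6 to 48.7 Mb, with the largest difference, -0.69 ± 0.17 (SE, adjusted p = 0.04675, limma), in the window of A-OSN-1, which both deletions lack. The count was 9 without 5A.2 replicate 2, beside 1.02% of all windows called later, and 12 without clone 5A.6, beside 2.68%, so the share over all windows rose as well. It was 0 without each of 1A.4, 2A.2, 3C.4 and 5A.2 in turn. On the left slope both deletions had nearly the same mean (-1.04 ± 0.03 and -1.06 ± 0.08), as on the right slope (-0.66 ± 0.09 and -0.63 ± 0.10).

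In AOSN.BOSN12.COSN123, the core of clone D6, the only one analysed, was at -0.22, within the range of the AOSN.B.COSN123 clones (-0.26 to 0.48). The difference was 0.22, or 0.18 without 5A.2 replicate 2 (p = 0.5 for both, exact permutation test, for which 0.167 is the smallest p). By window, 11 of 71 were called, 2 later (6.02% of all windows) and 9 earlier (14.8%), and 12 were called without 5A.2 replicate 2. These shares do not exceed those over all windows, and the spread of the lone library of D6 was taken from the other groups, so nothing is read from the calls.

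In A.B.COSN123, where all of A is gone, the core was later still, at -0.88 and -0.75 in clone 2E.1 and -0.76 and -0.75 in clone 5A.7. All 4 libraries were later than all 10 of AOSN.B.COSN123, of which the latest was 2A.2 replicate 2 at -0.33. The difference of clone means was 0.79 (adjusted p = 0.0714, exact, again the smallest possible) and 0.74 without 5A.2 replicate 2. By window, 0 of 71 were called by limma on clones, beside 0% over the autosomes, and 24 had an unadjusted p under 0.05, 21 of them earlier, beside 9.53% over the autosomes. The count was also 0 without 5A.2 replicate 2, with 25 unadjusted, beside 8.56% over the autosomes. With libraries as units and clone as a random block, 10 windows were called, all earlier in AOSN.B.COSN123, beside 0.0305% of all windows called earlier.

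Along the genes, AOSN.B.COSN123 lay between these deletions. Dppa2 was at 0.70 in AOSN.COSN123, 0.01 in AOSN.B.COSN123 and -0.74 in A.B.COSN123, and Morc1 was at 0.53, -0.05 and -0.84. At Myh15, at the end of the domain, the means were -0.79, -0.71 and -0.79.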

How the data were processed

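Per the labels and the study's methods, the authors labelled F121-9 cells with BrdU, sorted early and late S phase, immunoprecipitated the labelled DNA and sequenced it. Reads were trimmed (TrimGalore, cutadapt), mapped with bowtie2 to mm10 with strain variants masked, split by homolog (SNPsplit), cleared of duplicates (Samtools) and counted per 50 kb window (bedtools). Versions are not given in the sources used here. The deposited values are log2 ratios of early to late reads, scaled, quantile-normalized and smoothed by loess by the authors, so neighbouring windows are not independent. Depth is unknown, since no counts were at hand, and the spread of libraries gives the precision. Of 138 columns of values over 49264 windows on 19 autosomes, 132 were used and 6, which matched no listed sample, were not. Repeat runs of a clone were averaged.

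Values were not transformed further. Interval values are means over windows lying wholly inside. Each window with a value in every clone was tested with limma 3.58.1 (R 4.3.3) on clone means. Clone was a random block (duplicateCorrelation, estimated on every 20th window) where both alleles of a clone entered the fit. The fit against WT 129 also held the CAST alleles lacking B and thus had this block. Single values were compared with exact permutation tests in Python 3.11.15, over clone means. Against the control, the clones shared by both groups were not taken into account. The window test was tested on simulated data. Genotypes of each allele and guide sequences come from the study's supplementary tables. The genes named are all protein-coding genes of GENCODE vM21 that overlap 47.5 to 49.5 or 49.65 to 50.05 Mb, and the reference chromosome 16 ends at the last window of the files (98207768 bp). The clones, intervals, genes and motifs were chosen with earlier results of these data known. Alternatives varied the control, unit, block, missing windows, moderation and threshold and left out each clone. Leaving out 5A.2 replicate 2, or it with both libraries of 5A.6, was added after seeing the data.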

Additional observations from a re-analysis of the deposited data

Results flagged for a closer look

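Of 27 groups of 4 to 10 libraries, 2 held a library far from the others by Dixon's ratio, the gap to the nearest library over the whole range, and chance gives about 1 in 20. Of 9 groups of 5 clone means, 0 did. On the right slope of the CAST control alleles, 5A.2 replicate 1 was at -0.07 and the other 3 libraries at -0.19 to -0.17 (ratio 0.838). From 48 to 49 Mb of the same alleles, 1A.4 replicate 2 was at 0.52 and the other 3 at 0.76 to 0.79 (ratio 0.909). Both were control libraries, and no deletion library was set apart by this measure. The measure cannot set apart 2 libraries that lie together, as those of 5A.6 did in the core.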

How the results depend on the processing

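Of 137 recomputed values, 101 were on the same side of the threshold in the same direction or, for the counts of windows, within 1.5 times, and no difference changed sign. With clones as units, the core comparisons with the 3 other deletions could not pass the threshold. Their side of it was thus fixed by the design, and their share of the 101 does not show robustness. Against control alleles, 20 windows were called with WT 129 as the control, beside 3.61% of all windows called in either direction. Without the clone block, 42 were called (31 later, 11 earlier), beside 13.3%. Without 2A.2, 3C.4 or 5A.6 in turn, 54 to 59 were called, beside 23.6 to 26.3%. Without 1A.4 or 5A.2, 1 control clone remained, so no count is given. Aggregate WT CAST alleles gave no complete window in the region, and 60 called windows, beside 30.9% of all windows, when missing values were allowed (an alternative added after seeing the data). Against CAST lacking B, 38 were called without the clone block (16.7% of all windows) and 48 to 61 with 1 clone left out (22.1 to 30.9%). Between clones, 19 were called with trended, robust moderation, 23 without 5A.2 replicate 2 and 0 to 23 with 1 clone left out (23 without 5A.2). The shares of all windows were 5.69, 17.7 and 0 to 15.8% (15.8% without 5A.2), so they rose as well. Both counts of 23 left out 5A.2 replicate 2 and are not read as results. Against AOSN.COSN123, 0 were called at an adjusted p of 0.01, 9 without 5A.2 replicate 2, 15 without it and 5A.6, and 0 to 12 with 1 clone left out. In the same order, 0.00528, 3.09, 11.2 and 0.0158 to 6.27% of all windows were called in either direction. Against AOSN.BOSN12.COSN123, the lone clone D6 gives no spread of its own, so no counts of the alternatives are given. Against A.B.COSN123, 10 were called with libraries as units and 0 to 4 with 1 clone left out (4 without 2A.2), beside 0.153% and 0 to 0.0343% of all windows.

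The core difference from the control was -1.16 without 5A.2 replicate 2 and 5A.6, and -1.11 to -0.92 with 1 clone left out (exact p 0.0667 to 0.2, the smallest those designs allow). With libraries as units, the core differences of -0.61 from AOSN.COSN123 and 0.79 from A.B.COSN123 passed the threshold. Libraries of the same clone are not independent, so these passes are not read as results. With clones as units both had an adjusted p of 0.0714 (exact permutation test). With 1 clone left out they were -0.73 to -0.54 and 0.67 to 0.85, and that from AOSN.BOSN12.COSN123 was 0.10 to 0.28. The ratio of SDs between and within clones was 0.156 (het) and 10.2 (hom) for within-library differences of the core and 0.58 and 3.92 for the whole domain. It was 0.932 in the core without 5A.2 replicate 2 and 5A.6. With 1 clone left out it was 0.728 to 4.19 in the core and 1.80 to 7.50 over the domain. Where it is under 1, clone means spread less than replicates. The cause of these changes was not tested, other than fewer clones.

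Replicate numbers recur between clones but did not pair libraries: over 21 pairs of clones, the correlation of deviations ran from -0.33 to 0.25 and was over 0.1 in 4. With the replicate number as a block, 9 windows were called against A.B.COSN123, beside 0.0944% of all windows. The other counts and calls were the same as without this block or within 1.5 times.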
